A study of Mus musculus with 25 samples.

Results

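The effect of losing both ChREBP isoforms was set against the effect of losing ChREBPβ alone in mouse perigonadal white adipose tissue. For every gene, the change between knockout (KO) and wild type (WT) in the total ChREBP line was computed, the change between KO and WT in the ChREBPβ line was computed, and the second was subtracted from the first. This difference of effects is below 0 where the total effect lies below the ChREBPβ effect, and above 0 where it lies above it. A value below 0 can thus come from a fall under total deficiency, a rise under ChREBPβ deficiency, or both. Lower and higher calls refer to the sign of this difference. The comparison used all 25 arrays of the series and 40561 of the 56605 distinct gene probes on the array, which represent 26394 genes, and each gene was represented by its brightest probe unless stated otherwise. All values are log2 intensities or differences between them, so that 1 unit is a 2-fold difference, and a gene was called where the limma adjusted p of its difference of effects was under 0.05.

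The 25 arrays fell into 4 groups, namely 7 ChREBPbeta_WT, 6 ChREBPbeta_KO, 7 ChREBPtotal_WT and 5 ChREBPtotal_KO, here written with a space and with β for beta (total ChREBP KO, for example, and ChREBPβ WT). Per the study's methods the mice were C57BL6/J males. ChREBPβ KO mice carried a CRISPR/Cas9 deletion of the ChREBPβ-specific exon 1b of Mlxipl, total ChREBP KO mice were Mlxipl-null and lacked both isoforms, and each line had its own WT group, described as littermates for the ChREBPβ line. Both were whole-body knockouts, so the adipose tissue of these mice came from animals whose liver and other organs carried the same deletion. Every mouse, WT mice included, was kept on a regular diet, fasted for 24 h and then refed for 18 h with food and 20% glucose in the drinking water. Ages were not given in the sources used here, and the labels number the samples without saying that each came from a different mouse, so that p-values measure the spread between these samples. The 4 wash batches each held all 4 groups and were a term of the fit.

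ChREBP, encoded by Mlxipl, is a basic helix-loop-helix leucine zipper transcription factor that is activated by glucose metabolites and binds DNA as a heterodimer with Mlx. ChREBPα is transcribed from one promoter of the gene, and ChREBPβ is transcribed from a second promoter with its own first exon, which active ChREBPα can itself induce. Per the study, the ChREBPβ promoter lies upstream of the ChREBPα promoter. In adipocytes ChREBP is known for driving genes that turn glucose into fatty acids, from sugar entry through glycolysis to fatty acid synthesis.

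The heterodimer recognises pairs of E-box sequences, of which CACGTG is the core letter pattern. The promoters of 6 called genes are shown as examples that hold that pattern, with both listed starts of Mlxipl. All 6 were called lower, although genes called higher held the pattern as well. For genes other than Mlxipl only windows that hold the pattern are shown. The windows are those of RefSeq on GRCm38.p6, written 5′ to 3′ on the strand of the gene, and run from 250 bases before the transcription start to 50 bases after it. CACGTG is in capitals and reads the same on both strands.
Mlxipl, upstream start (chr5:135089640-135089939, plus strand): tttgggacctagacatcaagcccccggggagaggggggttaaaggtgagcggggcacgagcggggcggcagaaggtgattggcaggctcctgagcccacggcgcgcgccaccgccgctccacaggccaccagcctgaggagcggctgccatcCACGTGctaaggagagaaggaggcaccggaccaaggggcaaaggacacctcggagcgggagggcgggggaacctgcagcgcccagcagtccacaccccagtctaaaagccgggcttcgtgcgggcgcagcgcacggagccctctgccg
Mlxipl, downstream start (chr5:135106641-135106940, plus strand): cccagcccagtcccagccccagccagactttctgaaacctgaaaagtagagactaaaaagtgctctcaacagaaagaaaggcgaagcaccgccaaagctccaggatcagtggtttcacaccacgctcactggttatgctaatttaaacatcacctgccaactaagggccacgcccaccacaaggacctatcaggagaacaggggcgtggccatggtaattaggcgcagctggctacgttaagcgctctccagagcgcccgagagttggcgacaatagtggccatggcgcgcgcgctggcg
Fgf21 (chr7:45615441-45615740, minus strand): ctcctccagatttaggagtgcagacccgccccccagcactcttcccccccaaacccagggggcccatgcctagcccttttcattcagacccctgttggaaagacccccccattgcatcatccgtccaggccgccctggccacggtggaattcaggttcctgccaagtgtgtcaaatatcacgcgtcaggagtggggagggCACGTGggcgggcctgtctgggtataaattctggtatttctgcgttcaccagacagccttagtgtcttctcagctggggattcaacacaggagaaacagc
Oxtr (chr6:112489776-112490075, minus strand): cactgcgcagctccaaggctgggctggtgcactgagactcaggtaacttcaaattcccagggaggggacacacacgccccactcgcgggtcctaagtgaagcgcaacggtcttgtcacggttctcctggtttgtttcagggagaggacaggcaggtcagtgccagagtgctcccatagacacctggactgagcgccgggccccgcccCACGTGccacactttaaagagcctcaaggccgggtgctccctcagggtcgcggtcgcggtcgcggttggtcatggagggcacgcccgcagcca
Plin2 (chr4:86670010-86670309, minus strand): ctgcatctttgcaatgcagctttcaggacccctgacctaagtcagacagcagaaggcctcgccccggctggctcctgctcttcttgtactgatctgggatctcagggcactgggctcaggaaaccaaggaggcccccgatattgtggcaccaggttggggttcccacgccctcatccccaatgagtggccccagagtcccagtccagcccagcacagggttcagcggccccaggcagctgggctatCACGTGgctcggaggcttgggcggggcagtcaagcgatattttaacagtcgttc
Slc25a1 (chr16:17928170-17928469, minus strand): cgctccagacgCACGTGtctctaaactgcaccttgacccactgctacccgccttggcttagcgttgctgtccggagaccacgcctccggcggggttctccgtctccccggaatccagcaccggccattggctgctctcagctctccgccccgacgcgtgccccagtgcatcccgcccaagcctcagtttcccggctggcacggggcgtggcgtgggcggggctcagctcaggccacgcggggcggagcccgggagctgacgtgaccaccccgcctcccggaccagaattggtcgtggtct
Pcx (chr19:4510222-4510521, plus strand): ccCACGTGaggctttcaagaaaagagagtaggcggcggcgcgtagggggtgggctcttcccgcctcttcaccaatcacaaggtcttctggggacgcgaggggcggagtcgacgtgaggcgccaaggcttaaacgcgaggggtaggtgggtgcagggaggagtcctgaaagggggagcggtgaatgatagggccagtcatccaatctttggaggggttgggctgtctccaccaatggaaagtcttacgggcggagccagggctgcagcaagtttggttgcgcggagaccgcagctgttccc
In the window of the upstream Mlxipl start the pattern began 98 bases before the start, and in the window of the other start, 17001 bases downstream, it was not present. Of all 32851 windows in the table, 2349 (7.15%) held CACGTG. Of the tested genes with a window, 1501 of 14797 (10.14%) held it in at least 1 window, against 41 of 288 (14.24%) of those called lower and 34 of 229 (14.85%) of those called higher. These letters are a description of the windows, and binding was not measured here.

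The difference of effects was called for 897 of 26394 genes, a background of 3.4%. Of these, 556 genes were lower (2.11% of all genes) and 341 were higher (1.29%). The median difference was -0.94 among the genes called lower and 0.65 among those called higher, against 0.002 over all genes. In the genes called lower the median effect was -0.95 for total deficiency and -0.03 for ChREBPβ deficiency, and in those called higher it was 0.60 and -0.06. The effect of total deficiency was the larger of the pair in 846 of the 897 called genes (94.3%), where it was the larger in 59.7% of all genes. The effects of the lines were opposite in sign in 480 of the 897, against 10559 of all 26394 genes. A difference of at least 1 log2 unit was reached by 255 genes called lower and by 61 called higher. The total ChREBP KO arrays lay below all 20 other arrays for 174 of the 556 genes called lower (0.849% of all genes did) and above them for 152 of the 341 called higher (1.3% of all genes did). For 867 of the 897 genes (96.8%) the difference had 1 sign within all 4 wash batches, against 20.8% of all genes. This share, the count of opposite signs and the counts of arrays lying apart come from the same arrays as the calls. They are partly set by that selection and give no separate support.

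**Figure D1:**
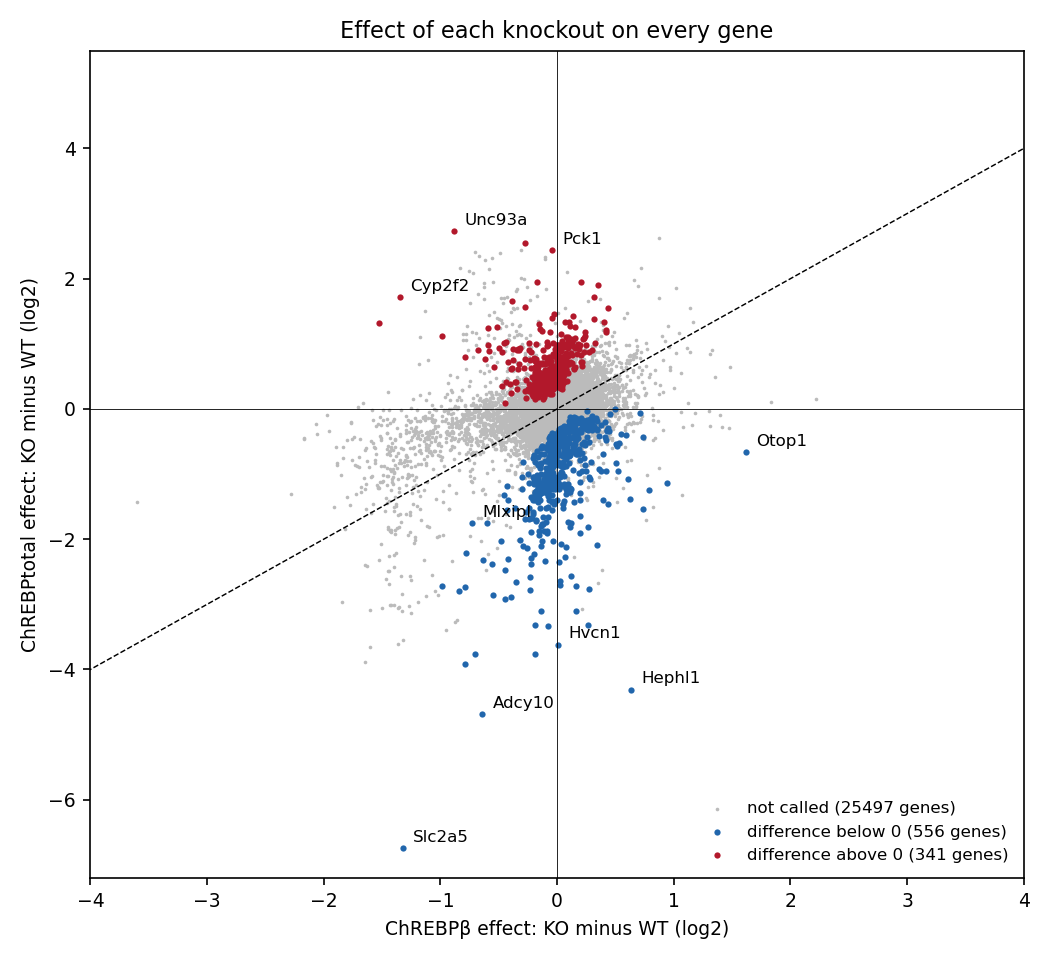
Effect of ChREBPβ deficiency (x axis, KO minus WT, log2) against effect of total ChREBP deficiency (y axis, KO minus WT, log2) for 26394 genes, where the dashed line marks equal effects, blue points are the 556 genes with a difference called below 0 and red points the 341 called above 0. The called genes spread along the vertical axis, from -6.74 for Slc2a5 upward, and lie near 0 on the horizontal axis with exceptions such as Otop1 at 1.62.

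Taken alone, the effect of total deficiency was called for 2433 genes (9.22%), and the effect of ChREBPβ deficiency for 0 genes by limma, with 2529 genes at an unadjusted p under 0.05. The count of 0 in the ChREBPβ line depended on single arrays. Without ChREBPβ KO replicate 4 it was 66 genes. Without the 6 ChREBPβ arrays highest in liver markers (3 WT and 4 KO arrays then remained in that line), a choice made after the data were seen, it was 326 genes, of which 125 were lower and 201 higher, and the difference of effects was then called for 1161 genes, 639 of them among the 897.

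The lines also differed in their WT mice. Between total ChREBP WT and ChREBPβ WT, 5769 genes (21.9%) were called, 13.2% of all genes higher and 8.61% lower in the total line. Among the 556 genes with a difference of effects called lower, total ChREBP WT lay above ChREBPβ WT in 519 (93.3%, against 57.8% of all genes), and the WT groups differed past the threshold in 438 (431 higher and 7 lower in the total line). Among the 341 genes called higher, the WT groups differed in 122 (25 higher and 97 lower). Both WT groups enter both contrasts, and the difference of effects falls as the WT difference rises. These counts are therefore partly set by the construction and are not independent of the difference of effects. Total ChREBP KO had the lowest of the 4 group means in 472 of the 556 genes and the highest in 310 of the 341.

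The mean of the adipocyte markers lay between 15.55 and 15.93 on every array, although 3 of the 14 were called in the difference of effects, Slc2a4 (-1.33) and Gpd1 (-1.14) lower and Cebpa (0.45) higher. The mean of the liver markers ran from 12.01 to 15.70 in ChREBPβ WT, from 10.60 to 14.98 in ChREBPβ KO, from 7.74 to 12.62 in total ChREBP WT and from 7.56 to 8.36 in total ChREBP KO, and of the 15 liver markers tested 1, Cyp2e1, was called in the difference of effects (higher), with a median difference of -0.76. With the liver score as a covariate, also chosen after the data were seen, the difference of effects was called for 1045 genes, of which 874 were among the 897. Kidney markers reached 9.68 in ChREBPβ WT, and of 13 tested 12 had a difference above 0 (median 0.83), while 0 were called by limma, with 2 at an unadjusted p under 0.05. The mean of the epididymis and vas deferens markers had a difference of -0.77, with 0 of 9 called by limma and 0 at an unadjusted p under 0.05. Of the markers of fat progenitors, mesothelium, endothelium, macrophages and lymphocytes 0 were called by limma, with 1, 0, 2, 0 and 0 at an unadjusted p under 0.05. The part of these markers in the results was not tested beyond those fits. In tissue RNA, fewer cells of a type and less RNA per cell cannot be told apart. Between 73.0% and 77.9% of gene spots were well above background, and the number of arrays limits the precision.

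**Figure D2:**
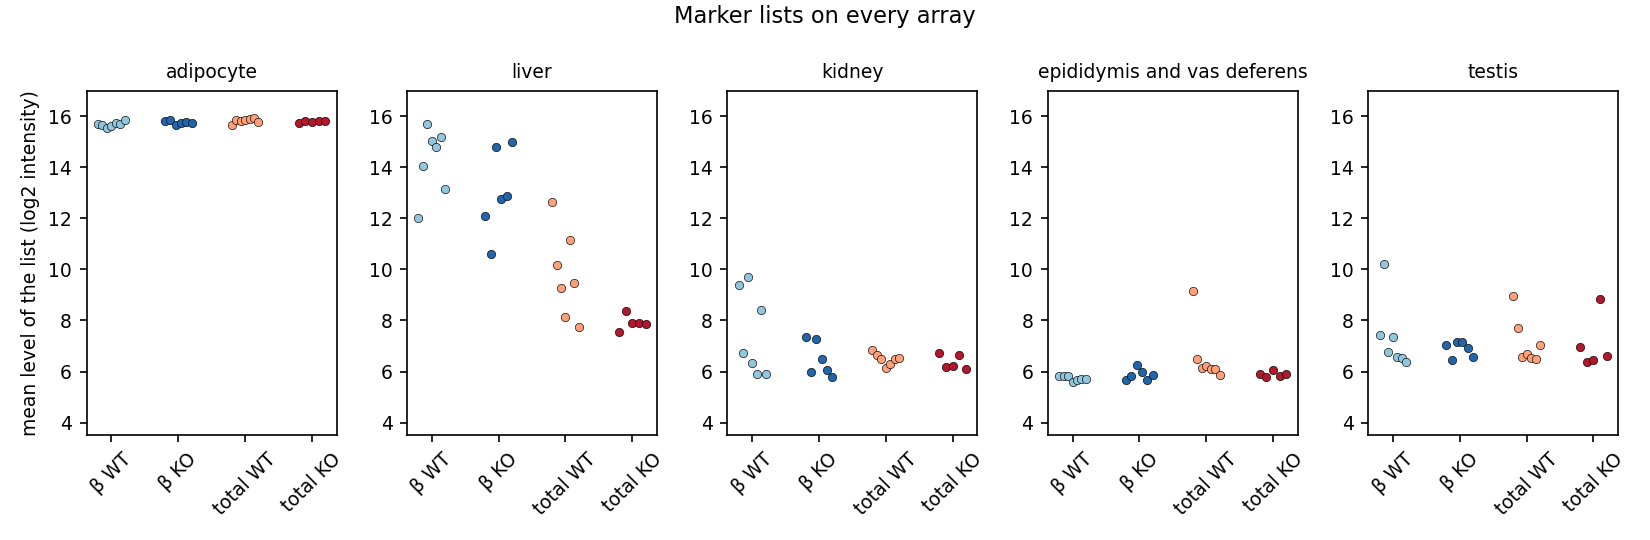
Mean log2 intensity (y axis) of 5 marker lists on every array, 1 point an array, in the 4 groups of the x axis. Adipocyte markers lie between 15.55 and 15.93 throughout, while liver markers range from 7.56 to 15.70 and are higher in the ChREBPβ line than in total ChREBP KO.

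Mlxipl, the deleted gene, was read as a partial check of the labels, since its levels do not tell the knockouts apart. Its brightest probe ran from 14.70 to 15.43 (median 15.07) in ChREBPβ WT, from 14.02 to 14.70 (median 14.35) in ChREBPβ KO and from 15.64 to 16.28 (median 16.01) in total ChREBP WT. The total ChREBP KO arrays read 14.25, 14.25, 14.29, 14.08 and 14.19. Every total ChREBP KO array was below every total ChREBP WT array, and these KO arrays lay within the range of ChREBPβ KO. In the total line KO and WT arrays did not overlap, in either direction, for 7.47% of all genes. The effect was -1.75 in the total line and -0.73 in the ChREBPβ line, and the difference was -1.02 (SE 0.20, limma adjusted p = 0.00367). The other 2 Mlxipl probes gave differences of 0.13 and -0.20. The first had effects of 0.08 in the total line and -0.05 in the ChREBPβ line, and the second -0.66 and -0.47. The mean over all 3 gave a difference of -0.36 with an adjusted p of 0.189, so that the call rests on the brightest probe. Which exons the probes lie in was not determined here, so a remaining signal does not say which transcript is left.

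Around Mlxipl, within 10 Mb on chromosome 5, 23 of 297 tested genes were called (7.74%), 12 lower and 11 higher. Over all genes 3.4% were called, 2.11% lower and 1.29% higher. A Taf6 probe 3.01 Mb away was among the furthest below 0 of all genes. Taf6 encodes a subunit of the general transcription factor TFIID. This probe read between 10.34 and 10.69 on all 20 other arrays, and 5.71, 5.86, 5.79, 5.51 and 9.90 in total ChREBP KO, where replicate 7 stood apart. A brighter Taf6 probe differed by -0.47, so that the probes of this gene disagree. Whether the segment inherited with the deleted allele has a part in these values was not tested.

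In this list and those below, counts of called genes stand against 2.11% of all genes called lower and 1.29% called higher. Of the ChREBP network, 5 of 16 genes tested were lower and 0 were higher (median -0.04). Besides Mlxipl these were Bhlhe40 (-1.16), a clock-linked repressor, Klf10 (-1.11), a repressor induced by glucose, Ppp1r3b (-1.02), a glycogen-targeting phosphatase subunit, and Max (-0.36), a partner of Myc. Txnip, an arrestin that restrains glucose uptake and a classical ChREBP target, differed by -0.31 (95% interval -0.63 to 0.01, limma adjusted p = 0.412). Pklr, the liver pyruvate kinase that gave ChREBP its binding site, differed by 0.15 with an interval of -1.23 to 1.52, too wide to show its direction. Its level was -0.19 from WT in the total line and -0.34 in the ChREBPβ line, neither past the threshold.

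Sugar entry held the lowest difference of all genes. Slc2a5, which encodes the fructose transporter GLUT5, ran from 9.65 to 10.82 (median 10.26) in ChREBPβ WT, from 8.11 to 10.30 (median 8.97) in ChREBPβ KO and from 11.82 to 12.91 (median 12.40) in total ChREBP WT, and read 6.11, 5.64, 4.93, 7.23 and 4.42 in total ChREBP KO, where 4 of the 5 arrays were well above background. No total ChREBP KO array reached any array of the other groups, while ChREBPβ WT and ChREBPβ KO overlapped. The difference was -5.42 (SE 0.52, limma adjusted p = 1.13e-06), from -6.74 in the total line and -1.32 in the ChREBPβ line (limma adjusted p = 0.30). Slc2a4, the insulin-responsive transporter GLUT4, ran from 14.96 to 15.65 (median 15.25) in ChREBPβ WT, from 14.97 to 15.48 (median 15.29) in ChREBPβ KO and from 16.01 to 16.38 (median 16.29) in total ChREBP WT, and read 14.65, 15.10, 14.69, 14.79 and 15.07 in total ChREBP KO. Its total ChREBP KO values fell below total ChREBP WT without overlap but overlapped the ChREBPβ line, whose arrays were themselves lower than total ChREBP WT. The difference was -1.33 (SE 0.18, limma adjusted p = 7.01e-05), against an effect of -0.07 in the ChREBPβ line (95% interval -0.33 to 0.19). A dimmer Slc2a4 probe gave -0.56 and was not called (limma adjusted p = 0.216). Slc2a13, a proton-coupled myo-inositol transporter, went the other way, at 11.94, 11.24, 11.88, 11.54 and 11.97 in total ChREBP KO, above all other arrays, with a difference of 2.12 (SE 0.32). Of the list of 19 sugar uptake and fructose genes, 2 were lower and 1 was higher (median 0.04), and of its 8 fructose and polyol enzymes 0 were called by limma, with 2 at an unadjusted p under 0.05.

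**Figure D3:**
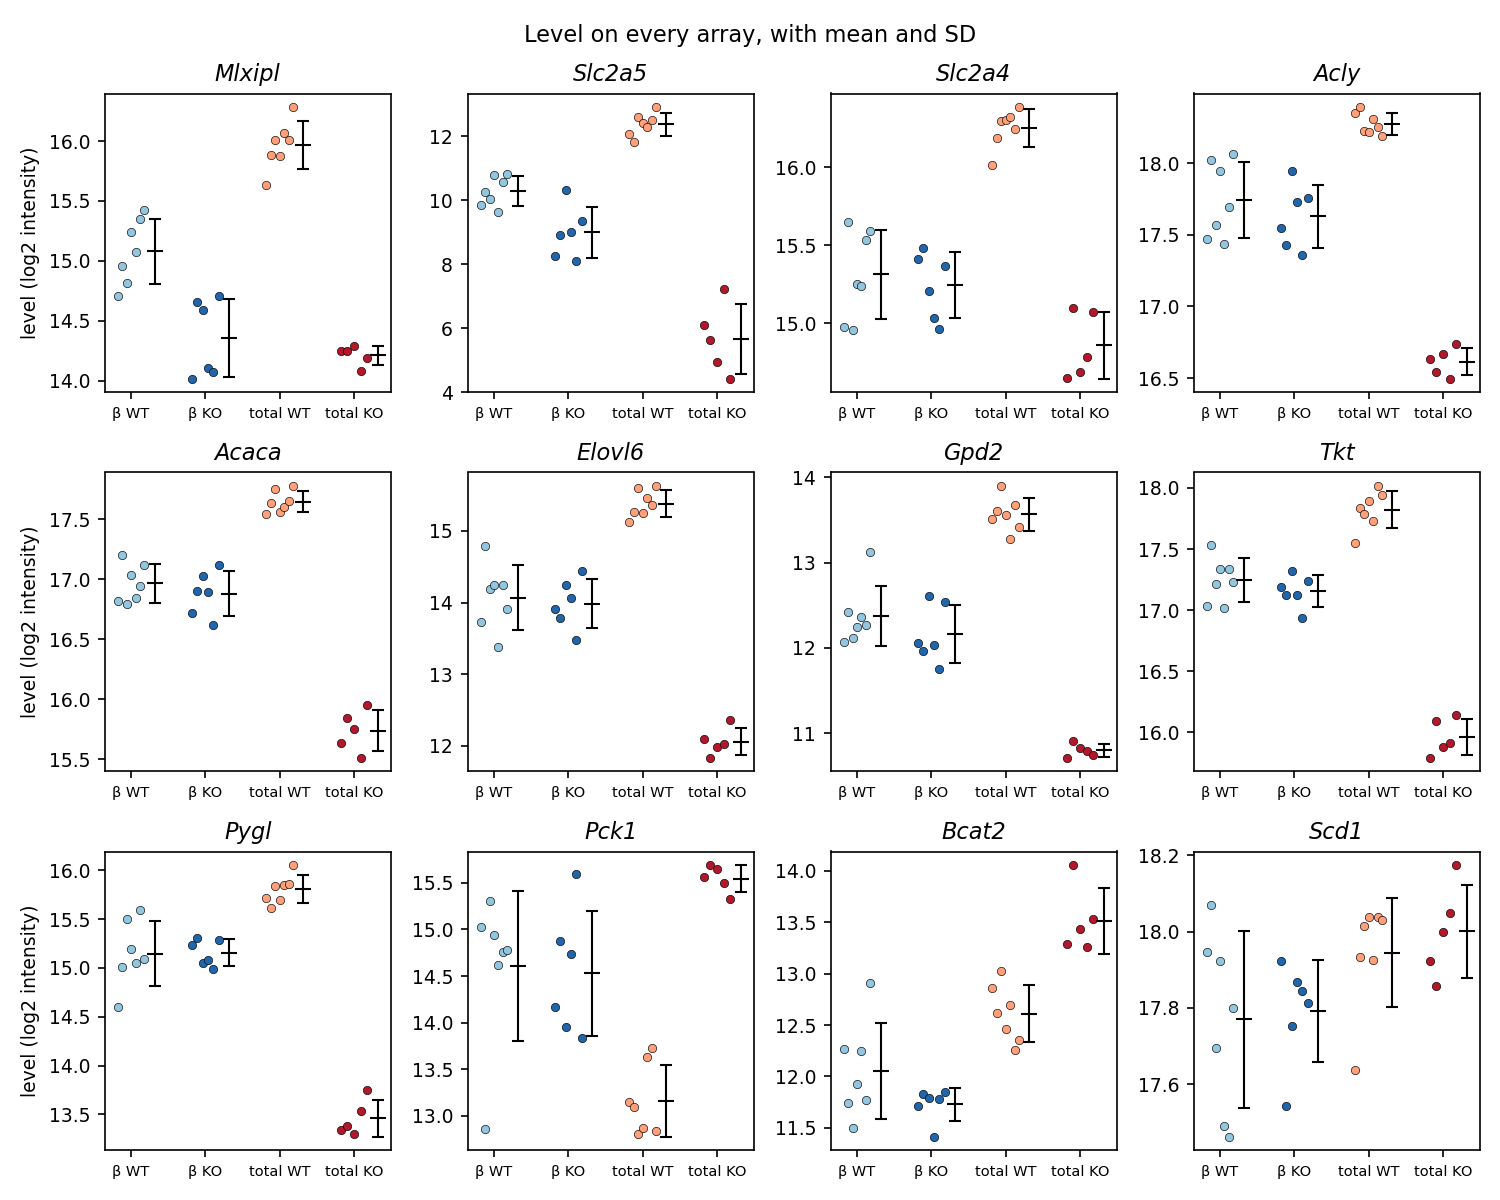
Log2 intensity (y axis, a separate scale for each gene) of 12 genes on every array, by group (x axis, WT and then KO of the ChREBPβ line, followed by those of the total line), with the group mean and SD beside the points. For Slc2a5, Acly, Acaca, Elovl6, Gpd2, Tkt and Pygl the 5 total ChREBP KO arrays lie below all others, for Bcat2 above all others, and Scd1 spans 17.46 to 18.17 with overlap between all groups.

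Glycolysis had 5 of 28 genes lower and 0 higher (median -0.09). Eno1, enolase, ran from 15.97 to 16.37 (median 16.28) in ChREBPβ WT, from 16.10 to 16.36 (median 16.23) in ChREBPβ KO and from 16.70 to 17.14 (median 16.94) in total ChREBP WT, and read 15.60, 15.44, 15.47, 15.64 and 15.48 in total ChREBP KO. The total ChREBP KO arrays lay below all others, and the ChREBPβ groups overlapped throughout. The difference was -1.39 (SE 0.10, limma adjusted p = 4.43e-08), and the interval of the ChREBPβ effect was -0.15 to 0.15. Hk2, the insulin-induced hexokinase of muscle and fat, read 12.86, 12.99, 12.90, 12.57 and 12.67 in total ChREBP KO against 14.01 to 14.52 in total ChREBP WT and 12.79 to 13.73 across the ChREBPβ line, with a difference of -1.28 (SE 0.18, limma adjusted p = 8.41e-05). The pyruvate kinase Pkm (-1.09), the lactate dehydrogenase Ldha (-0.50) and Gapdh (-0.35) made up the called members. The brightest Gapdh probe was near the top of the intensity scale, and 6 other Gapdh probes gave -0.95 to -1.06. Pfkl, a phosphofructokinase isoform at the committed step, differed by -0.54 with an adjusted p of 0.0522, just outside the threshold, from effects of -0.88 and -0.34, and a dimmer Pfkl probe gave -1.05 with an adjusted p of 0.0261.

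Of 7 enzymes of the pentose phosphate pathway, a source of NADPH for fatty acid synthesis, 2 were called lower and 0 higher. Their median difference was -0.36, with 6 below 0 and 4 at an unadjusted limma p under 0.05. Tkt, transketolase of the non-oxidative branch, ran from 17.02 to 17.54 (median 17.23) in ChREBPβ WT, from 16.93 to 17.32 (median 17.16) in ChREBPβ KO and from 17.55 to 18.01 (median 17.84) in total ChREBP WT, and read 15.79, 16.09, 15.88, 15.92 and 16.14 in total ChREBP KO, below every other array. The difference was -1.79 (SE 0.12, limma adjusted p = 1.32e-08), and Taldo1, transaldolase of the same branch, differed by -0.36. G6pdx, which opens the oxidative branch, differed by -0.04 (95% interval -0.32 to 0.24). Of the other NADPH producers Me1, cytosolic malic enzyme, was lower (-1.04), whereas Idh1, cytosolic isocitrate dehydrogenase (0.55), and Aldh1l1, a folate enzyme (0.91), were higher. In all, 3 of 13 genes were lower and 2 were higher (median -0.04).

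The steps from citrate to palmitate were the stretch of fatty acid synthesis with the most calls, at 7 of 11 genes lower, 0 higher and a median of -0.86. Acly, which splits citrate into acetyl-CoA, ran from 17.44 to 18.06 (median 17.69) in ChREBPβ WT, from 17.36 to 17.95 (median 17.64) in ChREBPβ KO and from 18.19 to 18.39 (median 18.25) in total ChREBP WT, and read 16.63, 16.55, 16.67, 16.50 and 16.74 in total ChREBP KO. Its total ChREBP KO arrays were apart from all others and its ChREBPβ groups overlapped. The difference was -1.55 (SE 0.16, limma adjusted p = 2.45e-06), with an effect of -0.12 in the ChREBPβ line (95% interval -0.35 to 0.11). Acaca, the carboxylase that makes malonyl-CoA for synthesis, ran from 16.79 to 17.21 (median 16.94) in ChREBPβ WT, from 16.62 to 17.12 (median 16.90) in ChREBPβ KO and from 17.54 to 17.78 (median 17.64) in total ChREBP WT, and read 15.63, 15.84, 15.75, 15.52 and 15.95 in total ChREBP KO. This was the same order of groups as for Acly, with a difference of -1.82 (SE 0.13, limma adjusted p = 2.04e-08). The other called members were Mid1ip1 (-1.18) and Thrsp (-0.89), related proteins that aid the carboxylase step, Acacb (-0.93), the mitochondrial-surface carboxylase, Slc25a1 (-0.86), the mitochondrial citrate carrier, and Fasn (-0.32), fatty acid synthase. Slc25a1 also had a ChREBPβ effect of -0.45 (limma adjusted p = 0.379). The Fasn probe sat at 18.79, the top of the quantile scale, on all 7 total ChREBP WT arrays and on most ChREBPβ arrays, and read 18.44, 18.42, 18.46, 18.32 and 18.46 in total ChREBP KO. Its difference ran from -0.34 to -0.28 over the 16 alternatives that left out no single array, and its call was lost in 3 of them, namely scaling to the 75th percentile, the replicate block and leaving out the 6 liver-rich arrays.

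Elongation and desaturation did not move as a block. Elovl6, the elongase that takes palmitate to stearate, ran from 13.39 to 14.79 (median 14.19) in ChREBPβ WT, from 13.48 to 14.44 (median 13.98) in ChREBPβ KO and from 15.12 to 15.63 (median 15.36) in total ChREBP WT, and read 12.10, 11.84, 11.98, 12.02 and 12.36 in total ChREBP KO, below all other arrays. The difference was -3.26 (SE 0.26, limma adjusted p = 6.74e-08), and the total ChREBP KO level was 0.0989 of its WT while the ChREBPβ effect was -0.08 (95% interval -0.45 to 0.29). Elovl4, which extends very long chains, was higher (1.02), and the other 10 elongation genes were not called. Of 8 desaturation genes 0 were called by limma, with 1 at an unadjusted p under 0.05. Scd1, the stearoyl-CoA desaturase, read 17.92, 17.86, 18.00, 18.05 and 18.17 in total ChREBP KO and 17.46 to 18.07 in the other groups. All groups overlapped, and its difference of 0.02 had an interval of -0.27 to 0.31 and turned sign under 7 alternatives. The whole fatty acid synthesis list had 8 of 31 genes lower and 1 higher (median -0.04).

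**Figure D4:**
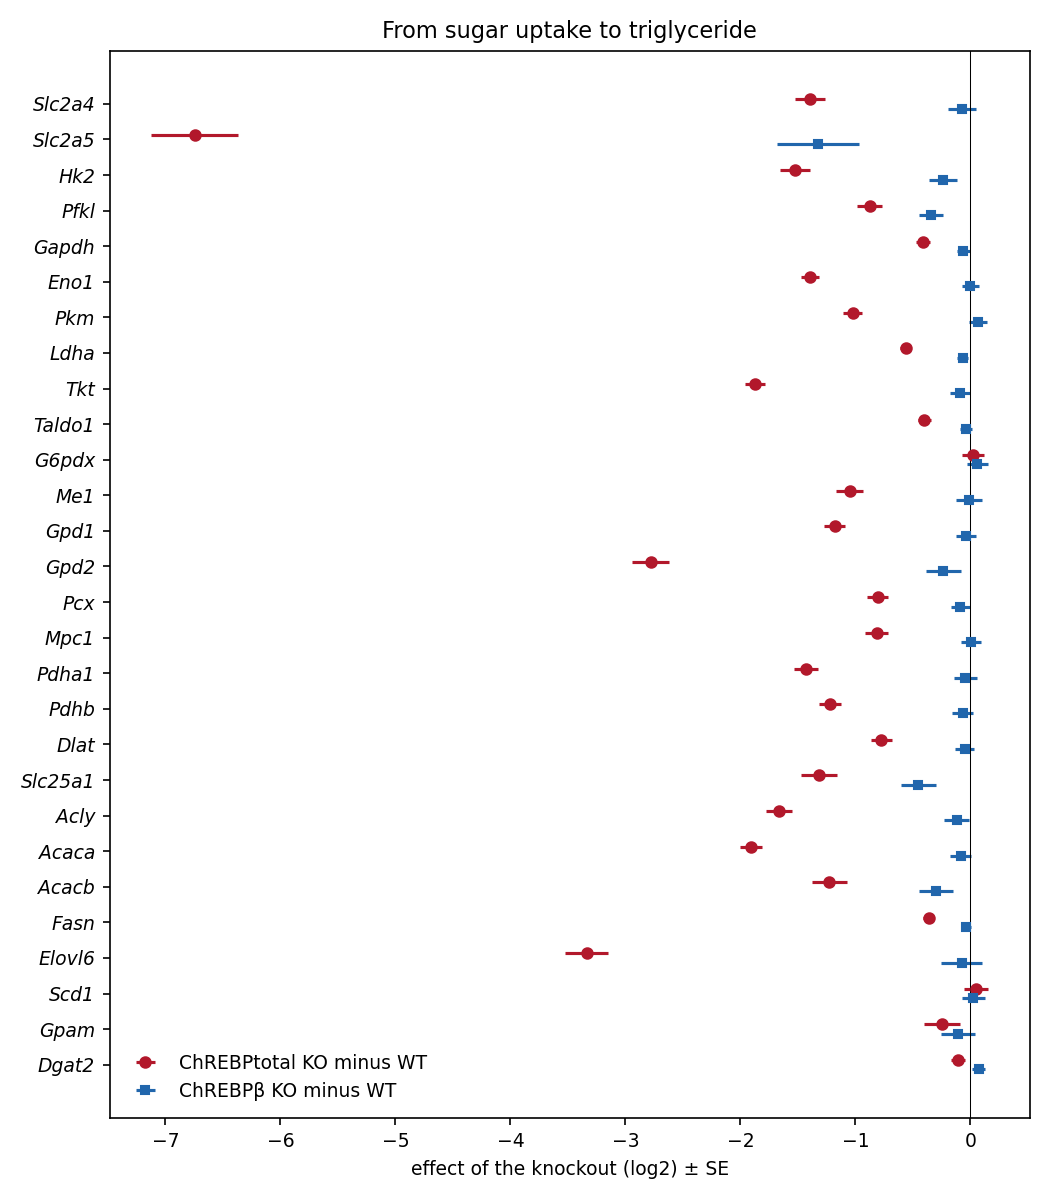
Effect of each knockout (x axis, KO minus WT, log2, with SE) for 28 genes ordered from sugar uptake to triglyceride synthesis, total ChREBP in red circles and ChREBPβ in blue squares. The red points lie left of the blue ones for most genes, from -6.74 at Slc2a5 to -0.36 at Fasn, and both lie near 0 for G6pdx, Scd1 and Dgat2.

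Pyruvate entry into mitochondria and the supply of glycerol 3-phosphate, the backbone of triglyceride, together had 8 of 23 genes lower and 1 higher (median -0.12). Gpd2, the mitochondrial glycerol 3-phosphate dehydrogenase, ran from 12.07 to 13.12 (median 12.27) in ChREBPβ WT, from 11.76 to 12.61 (median 12.05) in ChREBPβ KO and from 13.27 to 13.90 (median 13.56) in total ChREBP WT, and read 10.71, 10.91, 10.82, 10.79 and 10.75 in total ChREBP KO. These 5 arrays lay close together and below all others. The difference was -2.55 (SE 0.22, limma adjusted p = 2.69e-07). Pdk1, a kinase that inhibits pyruvate dehydrogenase, read 10.61, 10.66, 10.48, 10.58 and 10.59 in total ChREBP KO against 12.66 to 12.99 in total ChREBP WT and 11.47 to 12.36 in the ChREBPβ line, with a difference of -2.07 (SE 0.19). The kinase and the enzyme it inhibits were both lower, since the pyruvate dehydrogenase subunits Pdha1 (-1.38), Pdhb (-1.16) and Dlat (-0.72) were called too, along with the pyruvate carrier Mpc1 (-0.82). Gpd1 (-1.14), the cytosolic glycerol 3-phosphate dehydrogenase, and Pcx (-0.72), pyruvate carboxylase, completed the list. Pdk4, the kinase induced by fasting, differed by 0.57 (95% interval 0.22 to 0.91, adjusted p = 0.0727) and was not called.

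Pck1, the cytosolic phosphoenolpyruvate carboxykinase that feeds glyceroneogenesis in fat, was the member that went up. It ran from 12.86 to 15.30 (median 14.78) in ChREBPβ WT, from 13.83 to 15.59 (median 14.45) in ChREBPβ KO and from 12.80 to 13.73 (median 13.09) in total ChREBP WT, and read 15.57, 15.69, 15.65, 15.50 and 15.32 in total ChREBP KO. The total ChREBP KO arrays were apart from their own WT but met the upper end of the ChREBPβ line, whose arrays mostly lay above total ChREBP WT. The difference was 2.48 (SE 0.45, limma adjusted p = 0.00157), with 3.82, 0.53, 1.80 and 2.56 within the 4 wash batches.

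Glycogen genes had 6 of 19 lower and 2 higher (median 0.03). Pygl, a glycogen phosphorylase, ran from 14.60 to 15.59 (median 15.09) in ChREBPβ WT, from 14.99 to 15.30 (median 15.15) in ChREBPβ KO and from 15.62 to 16.05 (median 15.84) in total ChREBP WT, and read 13.34, 13.38, 13.30, 13.54 and 13.75 in total ChREBP KO, below all other arrays. The difference was -2.36 (SE 0.18, limma adjusted p = 4.94e-08). Enzymes of both directions were lower, among them the branching enzyme Gbe1 (-1.67), the liver-type synthase Gys2 (-1.59, limma adjusted p = 0.0369), the UDP-glucose pyrophosphorylase Ugp2 (-0.63) and Ppp1r3b. The higher members were Ppp1r3d (0.61), another targeting subunit, and Phka2 (0.62), a phosphorylase kinase subunit. The call of Gys2 was lost in 15 of the 25 fits that left out 1 array.

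Lists of triglyceride synthesis and of lipolysis and lipid droplet had 4.55% and 8.7% of their genes called, against 3.4% of all genes. The total effect was called for 7 of 22 synthesis genes and 7 of 23 lipolysis and droplet genes, against 9.22% of all genes. Of 22 triglyceride synthesis genes 0 were lower and 1, the acyltransferase Gpat3 (0.89), was higher (median 0.09). Gpam, the mitochondrial acyltransferase, differed by -0.14 (95% interval -0.59 to 0.30) and Dgat2, which makes triglyceride from diglyceride, by -0.18 (interval -0.34 to -0.01, adjusted p = 0.322). Of 23 lipolysis and lipid droplet genes, the droplet coat protein Plin2 was lower (-1.31) and Lpl, lipoprotein lipase, was higher (0.46). The lipases Pnpla2 (0.06, interval -0.28 to 0.40) and Lipe (-0.04, interval -0.43 to 0.35) and the coat protein Plin1 (0.22, interval -0.02 to 0.47) were not called. The fatty acid uptake list of 15 genes had Lpl as its single call, and of 30 respiratory chain subunits 0 were called by limma, with 3 at an unadjusted p under 0.05 and differences between -0.06 and 0.25 (median 0.07).

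Breakdown of branched-chain amino acids was the list with the most calls above 0, with 9 of 24 genes higher, 0 lower and a median of 0.33. Bcat2, the mitochondrial aminotransferase that takes the first step, ran from 11.50 to 12.91 (median 11.92) in ChREBPβ WT, from 11.42 to 11.85 (median 11.79) in ChREBPβ KO and from 12.26 to 13.03 (median 12.62) in total ChREBP WT, and read 13.29, 14.06, 13.44, 13.26 and 13.53 in total ChREBP KO, above all other arrays. The difference was 1.25 (SE 0.26, limma adjusted p = 0.00686). The subunits of the next enzyme, the branched-chain ketoacid dehydrogenase, followed with Bckdhb (0.47) and Bckdha (0.45), and later steps with Mccc1 (0.61), Mccc2 (0.50), Acadsb (0.53), Aldh6a1 (0.45), Ivd (0.43) and Echs1 (0.38). Without total ChREBP KO replicate 2 the list had 4 genes called, and between 4 and 10 over all fits that left out 1 array.

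Fatty acid oxidation and ketone genes had 4 of 23 higher and 0 lower (median 0.20). Cpt1a, the gatekeeper of mitochondrial fatty acid entry, ran from 12.18 to 13.13 (median 12.68) in ChREBPβ WT, up to 12.79 (median 12.51) in ChREBPβ KO and from 11.85 to 12.28 (median 12.01) in total ChREBP WT, and read 13.07, 12.61, 13.02, 12.89 and 13.22 in total ChREBP KO. The KO arrays exceeded their own WT and overlapped the ChREBPβ line. The difference was 1.02 (SE 0.22, limma adjusted p = 0.00938), followed by Oxct1 (0.82), the ketone-using transferase, the peroxisomal thiolase Acaa1b (0.76) and Cpt2 (0.49). Cpt1b, the muscle-type isoform, differed by -0.27 (95% interval -0.54 to -0.01, adjusted p = 0.372).

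Among 19 lipogenic and adipogenic transcription factors 5 were higher and 1 was lower (median 0.05). Srebf1, the insulin-driven lipogenic factor that acts beside ChREBP, was the lower one (-0.51, SE 0.14, limma adjusted p = 0.0444), and its call was lost in 18 of the 25 fits that left out 1 array. Ppara (1.58), a factor of fatty acid oxidation, Klf15 (0.67), Foxo1 (0.54), both active in fasting, Cebpa (0.45), an adipocyte regulator, and Zbtb20 (0.40) were higher. For Ppara the ChREBPβ effect was -0.79 (limma adjusted p = 0.371) and the total effect 0.79 (adjusted p = 0.0768), so that neither effect alone passed. Its levels in total ChREBP KO, 10.44, 10.61, 10.41, 10.54 and 10.80, lay within the range of ChREBPβ WT, 10.14 to 12.32. Pparg, the master regulator of adipocytes, differed by -0.02 (95% interval -0.29 to 0.25).

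**Figure D5:**
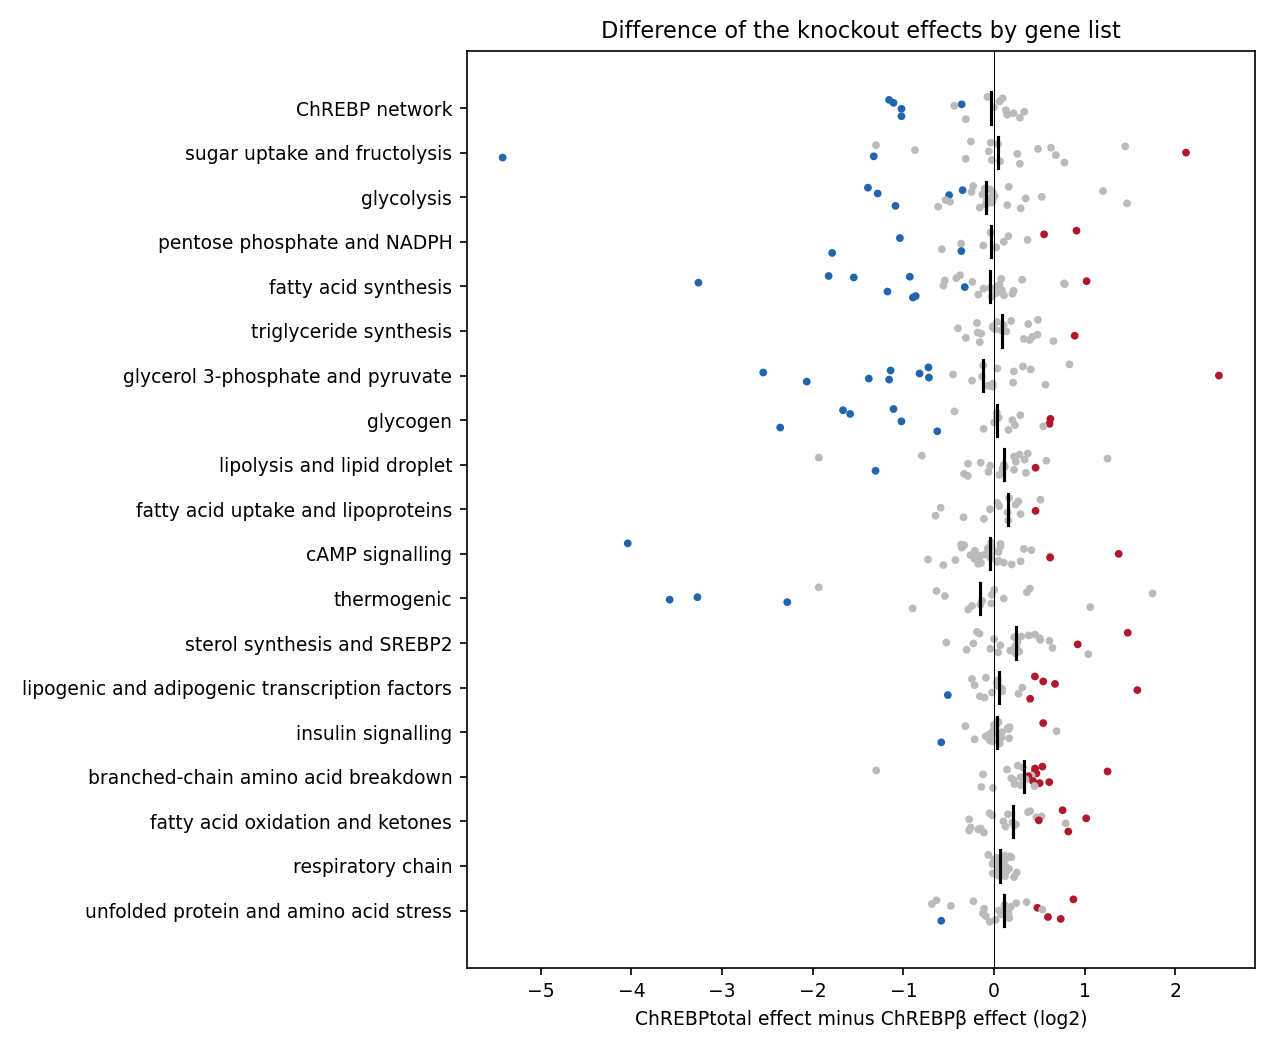
Difference of effects (x axis, total ChREBP effect minus ChREBPβ effect, log2) of every tested gene in 19 lists, with blue points called below 0, red points called above 0, grey points not called and a black bar at the list median. Calls of lists that carry glucose to fatty acids lie mostly left of 0, those of branched-chain amino acid breakdown and fatty acid oxidation right of 0, and the respiratory chain stays between -0.06 and 0.25.

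The lists that follow held between 0 and 5 calls each. Sterol synthesis had 2 of 26 genes higher (median 0.24), among them Msmo1 (0.92), a sterol methyl oxidase. The stress list had Asns (0.88), Sesn2 (0.74), Psat1 (0.59) and Edem1 (0.48) higher and Trib3 (-0.58) lower of 25. Insulin signalling had Foxo1 higher and Trib3 lower of 23, with Irs2 at 0.69 (interval 0.16 to 1.22, adjusted p = 0.197) and Insr at 0.16 (interval -0.08 to 0.41). The clock genes Per2 (1.05) and Rora (0.53) were higher and Bhlhe40 was lower of 19. The immediate early list had Maff (-1.77) and Dusp1 (-1.06) lower of 22 (median -0.29). Of the adipokines, the activin-binding protein Fst (-1.35) was lower of 20, whereas Adipoq (0.19, interval -0.17 to 0.55) and Lep (-0.43, interval -1.21 to 0.35) were not called. Col12a1 (-1.09) was lower of 22 collagen and matrix genes, and 0 of 17 glucocorticoid-responsive genes were called by limma, with 6 at an unadjusted p under 0.05. Of 30 metal and acid handling genes, Hephl1, Car6 and the zinc exporter Slc30a1 (-0.36) were lower and Heph (0.62) and Car1 (0.46) higher. Car6, a secreted carbonic anhydrase (difference -1.58), was not well above background on any total ChREBP KO array, so its level there was at least 2.47-fold lower than in total ChREBP WT.

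Signalling genes were among the largest differences. Adcy10, the bicarbonate-sensitive soluble adenylyl cyclase, ran from 7.91 to 9.09 (median 8.60) in ChREBPβ WT, from 7.67 to 8.35 (median 7.84) in ChREBPβ KO and from 10.59 to 11.51 (median 11.22) in total ChREBP WT, and read 6.32, 6.33, 6.24, 6.68 and 6.75 in total ChREBP KO. These were below all other arrays, and total ChREBP WT was above all arrays of the ChREBPβ line. The difference was -4.04 (SE 0.28, limma adjusted p = 1.32e-08), and the ChREBPβ effect was -0.64 (limma adjusted p = 0.335). The other 3 Adcy10 probes were called too, of which the one nearest to 0 gave -1.62. Adrb3, the adipocyte β3-adrenergic receptor, went up, at 16.12, 16.25, 16.08, 16.14 and 16.38 in total ChREBP KO against 14.69 to 15.17 in total ChREBP WT, 15.28 to 16.33 in ChREBPβ WT and 15.18 to 16.09 in ChREBPβ KO. Its difference was 1.38 (SE 0.22, limma adjusted p = 0.00048), but its KO levels overlapped those of the ChREBPβ line. With Pde3b (0.62), the insulin-activated phosphodiesterase, the cAMP list had 1 gene lower and 2 higher of 37 (median -0.04).

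The largest differences were taken over all called probes, so that some are not of the brightest probe of their gene. Of the 12 genes with the largest differences below 0 that kept their sign in all wash batches, Slc2a5, Elovl6, Adcy10 and Taf6 are described above. Hephl1, a ferroxidase related to hephaestin, had a difference of -4.94 (SE 0.80, limma adjusted p = 0.000503), and read 4.93, 5.19, 5.55, 5.08 and 8.97 in total ChREBP KO against 9.62 to 10.77 in total ChREBP WT and 7.57 to 10.51 in the ChREBPβ line. Total ChREBP KO replicate 7 alone overlapped the ChREBPβ line, as it stood apart for Taf6. Ptges, prostaglandin E synthase, read 10.60, 11.06, 10.71, 10.71 and 11.26 in total ChREBP KO against 13.10 to 14.40 on all other arrays and had the smallest error of these genes, with a difference of -3.50 (SE 0.15, limma adjusted p = 1.46e-11). These values are of a probe that was not the brightest, and the brightest Ptges probe gave -0.80, called too. Hvcn1, a voltage-gated proton channel, read 10.28, 9.85, 9.84, 10.39 and 9.03 in total ChREBP KO and 12.23 to 13.76 elsewhere (difference -3.63, SE 0.29). Kcnk3, a background potassium channel of adipocytes, read 7.40, 8.13, 7.73, 7.61 and 8.06 against 9.21 to 11.46 elsewhere (difference -3.58, SE 0.28). Both channels left no overlap with any other group.

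The hormone and receptor genes of that set followed. Fgf21, a fasting and refeeding hormone, ran from 7.56 to 9.15 in ChREBPβ WT, from 7.38 to 9.70 in ChREBPβ KO and from 9.38 to 10.42 in total ChREBP WT, and read 7.21, 6.85, 7.47, 6.03 and 7.15 in total ChREBP KO. It fell below its own WT without overlap and touched the low end of ChREBPβ KO, with a difference of -3.27 (SE 0.51, limma adjusted p = 0.000378). Oxtr, the oxytocin receptor, read 10.88, 9.67, 10.67, 10.80 and 9.82 in total ChREBP KO against 11.93 to 14.05 on all other arrays, and was a gene whose WT groups were level (total ChREBP WT minus ChREBPβ WT 0.04). Its difference of -3.04 (SE 0.45) thus came with a ChREBPβ effect of 0.28. Pth1r, the parathyroid hormone receptor, differed by -3.06 (SE 0.31), with a ChREBPβ effect of -0.70 (limma adjusted p = 0.342), and Oscp1 by -3.14 (SE 0.24).

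Among the 12 largest differences above 0, besides Pck1 and Slc2a13, Lrrtm1, a leucine-rich repeat synaptic adhesion protein, read 9.64, 8.46, 9.46, 8.67 and 9.30 in total ChREBP KO against 6.01 to 7.81 on all other arrays. The difference was 2.82 (SE 0.36, limma adjusted p = 4.18e-05). Unc93a had the highest difference (3.61, SE 0.54), with total ChREBP KO between 9.26 and 10.85, ChREBPβ WT between 6.15 and 7.66, ChREBPβ KO between 5.54 and 6.63 and 1 total ChREBP WT array, replicate 2, at 9.33. That array was also the highest in epididymis and vas deferens markers (9.14), and a dimmer Unc93a probe gave -0.10 (adjusted p = 0.891). Cyp2e1, a cytochrome P450 that is also 1 of the liver markers, read 16.47, 16.58, 16.57, 16.25 and 16.97 in total ChREBP KO, where the liver marker mean was low, against 14.41 to 16.36 elsewhere, so that the groups met at their edges. Its difference was 1.92 (SE 0.35, limma adjusted p = 0.00182) on this probe, and 1.43 on the brightest one, which is the probe counted among the liver markers. Car3 (2.20), the carbonic anhydrase abundant in fat, Tst (2.10), a mitochondrial sulfurtransferase, Ttll2 (1.84, well above background on all 5 total ChREBP KO arrays and 3 of 6 ChREBPβ KO arrays), Slc25a34 (1.77), Nap1l5 (1.74) and Trp63 (1.74) were the others, and Cyp2f2 (3.06, SE 0.82, limma adjusted p = 0.0425) lost its call in 19 of the 25 fits that left out 1 array. The probes of Car3 disagreed, since a second one gave 2.14 and the brightest gave 0.32 with an adjusted p of 0.222. The probes of Trp63 and Slc25a34 disagreed as well, since the brighter probe of Trp63 gave -0.09 (adjusted p = 0.853) and that of Slc25a34 gave -0.08 (adjusted p = 0.907), so that neither gene is among the 341. Slc25a34, a mitochondrial carrier, lost its call in 15 of those fits.

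In 51 of the 897 called genes the ChREBPβ effect was the larger. Otop1, a proton channel found in brown fat, had the largest of these. It ran from 5.27 to 6.28 (median 5.72) in ChREBPβ WT, from 6.59 to 7.86 (median 7.48) in ChREBPβ KO and from 5.44 to 6.71 (median 6.18) in total ChREBP WT, and read 5.41, 5.11, 5.13, 5.31 and 6.51 in total ChREBP KO. ChREBPβ KO lay above ChREBPβ WT, where arrays of that line did not overlap in either direction for 0.0606% of all genes, and overlapped the upper end of the total line. The difference was -2.28 (SE 0.39, limma adjusted p = 0.001), from 1.62 in the ChREBPβ line (limma adjusted p = 0.0939) and -0.66 in the total line (adjusted p = 0.183). A second Otop1 probe gave a difference of -0.31 (limma adjusted p = 0.674) and a ChREBPβ effect of 0.20, so that the probes of this gene disagree. Dusp1, a phosphatase of MAP kinases, had effects of 0.53 in the ChREBPβ line and -0.53 in the total line, and Trib3, a pseudokinase, of 0.32 and -0.26. Over all called genes the ChREBPβ effect had an unadjusted p under 0.05 in 189, and in 142 of these its sign was opposite to that of the total effect. Over all 26394 genes these counts were 2529 and 732. Opposite effects enlarge the difference on which genes were called, so the count of 142 is partly set by that selection.

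The thermogenic list had 3 of 19 genes lower (Kcnk3, Fgf21 and Otop1) and 0 higher (median -0.15). Ucp1, the uncoupling protein of brown fat, did not exceed background clearly on any total ChREBP KO array but did on 5 of the 7 of total ChREBP WT. With KO values set no lower than background, its mean was 1.20-fold lower in the KO. That value has no interval and includes WT arrays near background. In the ChREBPβ line Ucp1 exceeded background clearly on 3 of 7 WT and 6 of 6 KO arrays. Its difference of -0.90 (95% interval -1.63 to -0.17) had a limma adjusted p of 0.23. Dio2, the deiodinase that activates thyroid hormone, rose in the total line (2.62, limma adjusted p = 8.54e-05) with a ChREBPβ effect of 0.87 (limma adjusted p = 0.485), and its difference of 1.75 (interval 0.64 to 2.86, adjusted p = 0.0887) was not called. Ppargc1a, a coactivator of mitochondrial genes, differed by -0.03 (interval -0.49 to 0.44).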

How the data were processed

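Cyanine-3 cRNA of 25 perigonadal white adipose tissue samples was hybridised to 1-colour Agilent SurePrint G3 mouse arrays. The authors scanned them with Agilent Feature Extraction 10.10.1.1 (per the submitters' processing notes), and the deposited scanner files give the median pixel intensity of each spot and its background. The authors also deposited a series table of quantile-normalised log2 intensity for the probes they kept, those well above background on most arrays or within a group, with replicated probes merged by median. Each of its columns correlated with the log2 of that array's scanner intensity at 0.99982 or above. It held 0 columns of other samples.

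From the scanner files, median intensities of the 40561 gene probes of the series table were taken as log2, spots marked as outliers by the scanner software were set to missing (23 values remained missing after merging), and the values were quantile-normalised between arrays and merged by median. Quantile normalisation gives every array the same highest value. Control spots were left out. Groups came from the sample titles and the wash batch from the labels. limma 3.58.1 (R 4.3.3) was fitted to all 25 arrays with 4 group means and the wash batch, with 18 residual degrees of freedom and empirical Bayes moderation, two-sided p-values and Benjamini-Hochberg adjustment over all probes. The study's methods name no test for this comparison. The scripts were tested on simulated data. SE and 95% intervals come from the moderated fit.

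Probe names are those of the array, updated through RefSeq by accession (25611 probes) or symbol (6779, and 340 by an older symbol), and 7831 matched neither. Probe positions are of mm9, and promoter windows of GRCm38.p6, so that they were not combined.

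Named genes were Mlxipl, the 12 largest differences in each direction among called probes with a gene symbol and 1 sign in all 4 wash batches, and, in each list, the called members and textbook control points. Genes of chromosome 5 and those with the larger ChREBPβ effect were chosen after their values were seen. The comparison and the gene lists were chosen with earlier results of these data known. Lists were described by counts and medians without a test, and a few of their members are not reported here. Alternatives covered the source of the values, background, normalisation, filters, batch, slide, scan day, replicate numbers, array weights, the prior, marker scores, the probe of a gene and each array left out.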

Additional observations from a re-analysis of the deposited data

Results flagged for a closer look

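The difference of effects is itself a difference between the lines under 1 contrast, and was past the threshold for 897 genes. Among the named ones it was below 0 for Slc2a5 (-5.42), Hephl1 (-4.94), Taf6 (-4.08), Adcy10 (-4.04), Hvcn1 (-3.63), Kcnk3 (-3.58), Ptges (-3.50), Fgf21 (-3.27), Elovl6 (-3.26), Oscp1 (-3.14), Pth1r (-3.06), Oxtr (-3.04) and Mlxipl (-1.02). It was above 0 for Unc93a (3.61), Cyp2f2 (3.06), Lrrtm1 (2.82), Pck1 (2.48), Car3 (2.20), Slc2a13 (2.12), Tst (2.10), Cyp2e1 (1.92), Ttll2 (1.84), Slc25a34 (1.77), Nap1l5 (1.74) and Trp63 (1.74). For Taf6, Ptges, Car3, Cyp2e1, Slc25a34 and Trp63 these values are not of the brightest probe, which gave -0.47, -0.80, 0.32, 1.43, -0.08 and -0.09, and of these Car3, Slc25a34 and Trp63 were not called.

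A single array stood far from the rest of its group in 16 of 180 groups examined, where chance gives about 1 in 20. For the marker lists the array that stood apart read 12.52 for macrophage, 8.80 for lymphocyte and 10.21 for testis markers in ChREBPβ WT, 9.14 for epididymis and vas deferens markers in total ChREBP WT, and 8.86 for testis and 7.55 for pancreas markers in total ChREBP KO. For the mean level of a gene list it read 14.28 for pentose phosphate and NADPH genes in total ChREBP WT and 13.02 for branched-chain amino acid breakdown in ChREBPβ WT. For single genes it read 13.12 (Gpd2) and 12.86 (Pck1) in ChREBPβ WT, 8.23 (Hephl1) and 11.42 (Bcat2) in ChREBPβ KO, 10.34 (Taf6) in total ChREBP WT, and 8.97 (Hephl1), 9.90 (Taf6) and 6.51 (Otop1) in total ChREBP KO. The last 3 values all belonged to total ChREBP KO replicate 7. Without that array the difference of effects was called for 808 genes.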

How the results depend on the processing

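The difference of effects was called for 897 genes. The count was 917 from the series table (893 of the 897 among them), 953 with normexp background correction (880), 914 with processed signals scaled to the 75th percentile (813), 900 with the filter on dim probes (889), 818 without a filter (795), 900 without the wash batch (841), 917 with the slide as a random block (896), 879 with the scan day (840), 919 with a trended and robust prior (888) and 941 with the mean over the probes of a gene (810). With array weights it was 1449 (891), of which 582 were higher and 867 lower. With liver, kidney and epididymis scores as covariates it was 997 (715). The other alternatives were chosen after the data were seen. They gave 1045 with the liver score alone (874), 989 without 3 arrays that stood apart (803) and 1161 without the 6 ChREBPβ arrays highest in liver markers (639), of which 575 were higher.

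The labels do not say that replicate numbers pair the samples, and same-numbered samples mostly did not deviate together, which cannot exclude a pairing. Over 9 same-numbered pairs the correlation of their deviations ran from -0.29 to 0.254, and 1 pair was over 0.1. With the replicate number as a block 503 genes were called (483 of the 897), 135 higher and 368 lower, with 3 lower genes in the ChREBP network, 5 lower in fatty acid synthesis, 1 higher in branched-chain amino acid breakdown, 2 higher in fatty acid oxidation and 1 higher among transcription factors.

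The ChREBPβ effect was called for 2 genes with normexp, 2 with the filter on dim probes, 2 with the trended and robust prior, 37 with array weights and 326 without the 6 liver-rich arrays. The wild type difference was called for 13 genes with the 3 covariates, 1962 with the liver score and 1967 without the 6 arrays. Fatty acid oxidation had 7 higher genes from the series table. Transcription factors had 3 higher genes with processed signals and 3 without the 6 arrays, where fatty acid synthesis had 5 lower genes. Mlxipl was -0.36 with the mean over its probes (adjusted p = 0.189). Dimmer probes of called genes were called for some and not for others. Those not called included probes of Slc2a4 (-0.56), Taldo1 (-0.38), Klf10 (-0.25), Per2 (0.16) and Col12a1 (-0.34).

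Uncalled differences near 0 changed sign. Pparg was 0.013 from the series table, 0.0064 with the mean over probes and 0.021 without the 6 arrays. Scd1 was -0.044 from the series table, -0.024 with processed signals, -0.055 with array weights, -0.023 with 3 covariates, -0.019 with the mean over probes, -0.0029 with the liver score and -0.039 without the 3 arrays. Ppargc1a was 0.026 without the wash batch, 0.0024 with the scan day, 0.081 with array weights and 0.39 without the 6 arrays. Gpam was 0.049 with the replicate block and 0.035 with 3 covariates. Pnpla2 was -0.016 with array weights and -0.029 without the 3 arrays, Srebf2 was -0.0054 with array weights, and Insr was -0.012 with the mean over probes. With 3 covariates Pklr was -0.32, G6pdx 0.0056 and Lipe 0.0047, and without the 6 arrays G6pdx was 0.070 and Lipe 0.10. The cause of these changes was not tested.

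With each array left out in turn, the difference of effects was called for 709 genes (without total ChREBP KO replicate 1) to 1080 (without total ChREBP WT replicate 2), with 248 to 392 higher and 461 to 707 lower. The ChREBPβ effect ranged from 0 to 66 genes (66 without ChREBPβ KO replicate 4), the higher genes of branched-chain amino acid breakdown from 4 (without total ChREBP KO replicate 2) to 10, and those among transcription factors from 3 (without total ChREBP KO replicate 4) to 5. Mlxipl ranged from -1.09 to -0.95, G6pdx from -0.12 to 0.025, Lipe from -0.13 to 0.048, Pklr from -0.18 to 0.49, Pnpla2 from -0.024 to 0.12, Pparg from -0.091 to 0.020, Ppargc1a from -0.10 to 0.12, Scd1 from -0.052 to 0.085 and Srebf2 from -0.0052 to 0.097. Slc2a5, Elovl6, Acly, Acaca, Tkt, Gpd2, Pygl and Pck1 were called in each of these 25 fits and under each of the other alternatives. Of these fits Cyp2f2 lost its call in 19, Srebf1, Echs1 and Car1 in 18, Slc25a34, Gpat3 and Gys2 in 15, Acadsb and Trib3 in 14, Cebpa in 13 and Bckdha in 12. The 5 to 7 arrays in each group limit the precision, and liver markers, wash batch and line could be separated only as far as these fits do.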
